A study of Mus musculus with 18 samples.

Results

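Mouse kidney proximal tubules in primary culture were compared between day 4 and day 1 after plating. The 6 libraries were taken by their labels, 3 of day 4 and 3 of day 1 (replicates A, B and C each), out of 18 polyA RNA libraries that also cover days 0, 2, 7 and 14. In both groups the tubules came from kidneys of wild type, female mice of the C57BL/6 strain (C57BL/6J in the protocol) at 6 weeks of age. In both, the minced kidneys were digested with collagenase, the tubules were purified on a Percoll density gradient and seeded on plain tissue culture plastic, and nothing was added as a treatment. Cells were never passaged, and the medium was renewed each day up to the third, so the groups differ in the time since plating alone as far as the labels say. The comparison asks which transcripts belong to the acute response to isolation and plating (high on day 1 and not on day 4) and which to the expanding, dedifferentiated cells (high on day 4 and not on day 1). Replicates are labelled as biological, with no word on whether each had its own animals or culture; the p-values therefore reflect the scatter of these libraries, part of which can be technical.

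The proximal tubule reabsorbs most of what the glomerulus filters, and its cells run on mitochondrial oxidation of fatty acids. When the tubule is torn from its surroundings or injured, its cells first turn on stress programmes: antioxidant genes driven by the factor NRF2, immediate early genes whose products form the AP-1 dimer, and injury genes. Surviving cells then lose their transport functions, spread and re-enter the cell cycle, in which replication genes and, later, mitotic genes are switched on in turn.

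Total estimated counts ran from 26819243 to 29922994 in the day 1 libraries and from 25918554 to 29867283 in those of day 4. The mitochondrial genome supplied 4.13% ± 0.724 of all counts on day 1 and 0.466% ± 0.0300 on day 4 (SD, n = 3; exact permutation p = 0.1, two-sided, the smallest that 3 libraries against 3 allow). Over all tested genes, log2 levels correlated at r = 0.977 or more among the day 1 libraries, at 0.990 or more among those of day 4 and at 0.856 to 0.889 between the days. Day 1 replicate B had the highest summed levels of proximal tubule, thick limb and endothelial genes of that day and the lowest of interferon genes.

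Of 18754 tested genes, 11118 (59.3%) differed between the days at a Benjamini-Hochberg adjusted p under 0.05 by edgeR's quasi-likelihood test. On day 4, 5165 genes (27.5%) were higher and 5953 (31.7%) lower, with a median log2 fold change of -0.05 over all tested genes. Counts of list members called higher or lower, given below, are to be read against 27.5% and 31.7%. Of the called genes, 46.5% were thus higher on day 4. The share was 57.3% when only library sizes were used for scaling and 64.8% by limma on log2(TPM + 1), which moved the median of all genes to 0.14 and 0.20. Levels are given below as counts-per-million (CPM) scaled by the trimmed mean of M-values, and serve to compare one gene between libraries, not genes with each other. Fold changes are log2 of day 4 over day 1 with their standard error (SE). A call rests on the adjusted p of the same test.

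To set the states apart, a gene was taken as high on one day and not the other if it was called, differed at least 4-fold, reached a mean of 10 CPM on its high day and had no overlap between the libraries. By these criteria 696 genes (3.71% of those tested) were high on day 1 and not day 4, and 595 (3.17%) were high on day 4 and not day 1. Day 0, the freshly isolated tubule, then split them. Of the 696, 137 stood at least 2-fold higher on day 1 than on day 0 and are called plating-induced here. Another 441 stood at least 2-fold lower on day 1 than on day 0 and are called remainder genes. That name stands for their course and not for a cell type. The other 118 lay in between. Of the 595, 537 stood at least 2-fold higher on day 4 than on day 0 (expansion-induced) and 58 did not. Thus most of the genes high on day 1 alone were already falling from a higher level on day 0. In bulk RNA, fewer cells of a type and less RNA per cell cannot be told apart. Just inside the 4-fold criterion lay Acaa2 at a log2 fold change of -2.0012 and Rad18 at 2.0010, and just outside it Abcb1b at -1.9999 and Cenpl at 1.9999.

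**Figure D1:**
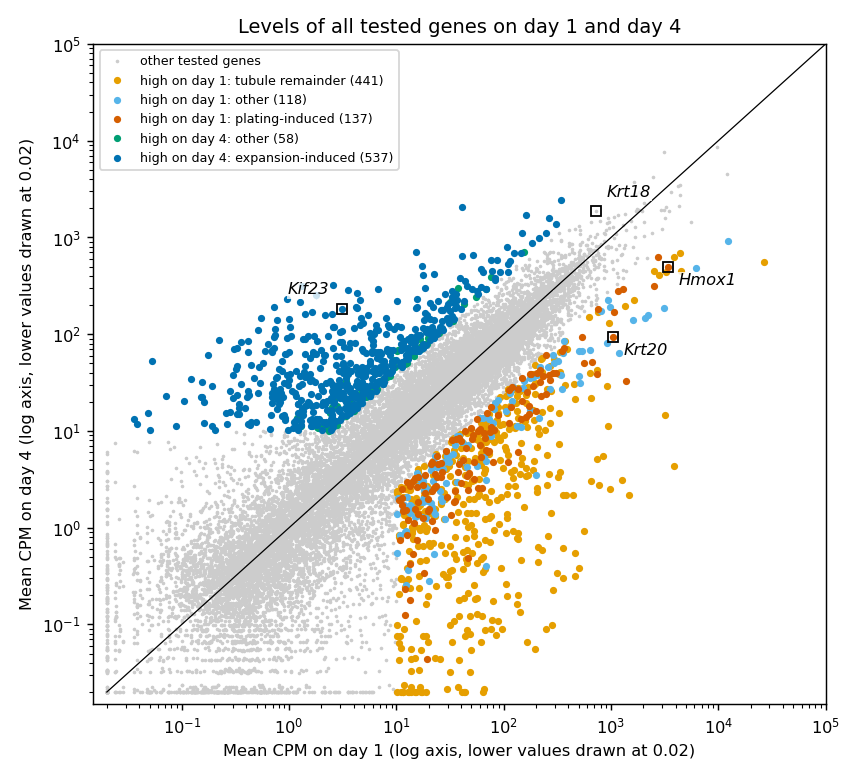
Mean level of every tested gene on day 1 (x axis, CPM, log axis) and day 4 (y axis, CPM, log axis), means of 3 libraries each, with the diagonal marking equal levels. Coloured points are the 696 genes high on day 1 and not day 4, among them 137 plating-induced and 441 remainder genes, and the 595 genes high on day 4 and not day 1. Hmox1 and Krt20 lie below the diagonal, Kif23 and Krt18 above it.

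The classes had different courses over the culture. Plating-induced genes had a median of 5.50 CPM in the fresh tubule, 48.0 on day 1, 21.0 a day later and 5.46 on day 4. The close medians of days 0 and 4 do not mean that each gene had returned to its day 0 level. Hmox1, for one, had means of 37.6 CPM on day 0 and 493 on day 4, and Pecam1 of 26.8 and 8.42 CPM. Remainder genes ran down without a peak, with medians of 251 CPM at isolation, then 55.9, 10.6 and 2.16 CPM on days 1, 2 and 4. Expansion-induced genes had medians of 3.01 CPM on day 0 and 3.56 on day 1, then 17.0 on day 2 and 43.6 on day 4. On day 2 the mean (on the log scale) was already nearer to day 4 than to day 1 for 366 of the 537 expansion-induced genes, against 37 of the 137 plating-induced and 240 of the 441 remainder genes. The levels of days 0, 1 and 4 chose the classes, so the courses over these days are partly set by that choice. The courses and counts are descriptions.

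**Figure D2:**
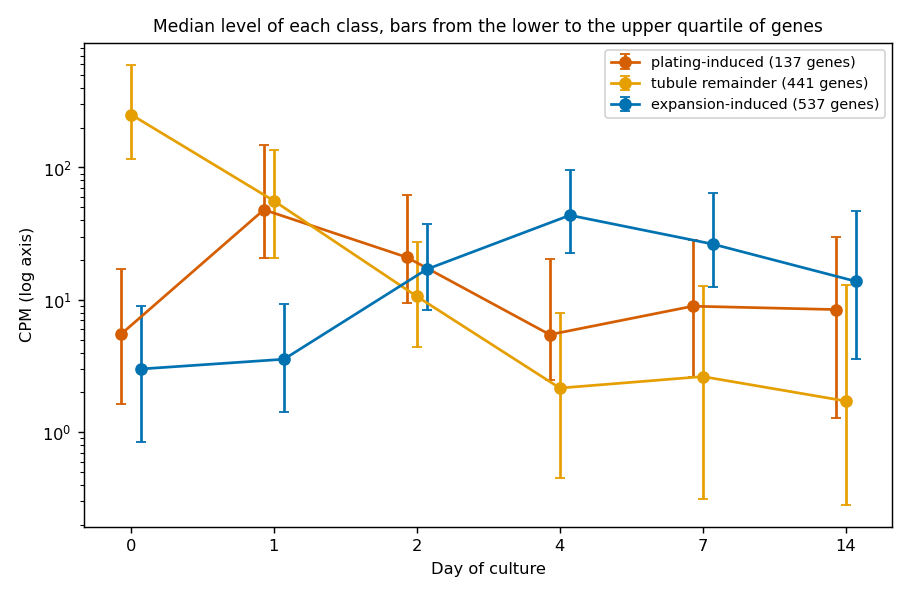
Median CPM of each class (y axis, log axis) by day of culture (x axis). Bars run from the lower to the upper quartile of genes. Plating-induced genes peak on day 1 at a median of 48.0 CPM, remainder genes fall from 251 CPM on day 0, and expansion-induced genes peak on day 4 at 43.6 CPM. The levels of days 0, 1 and 4 chose the classes.

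Of the 4 marker genes of the comparison, a pair peaked on day 1 and a pair on day 4. Hmox1 encodes heme oxygenase, which breaks down heme and is a classic sentinel of oxidative stress (ENSMUSG00000005413, chromosome 8, 75093621 to 75100589 in GRCm38). Its level was 3403, 4218 and 2601 CPM in the day 1 libraries A, B and C and 493, 472 and 514 CPM in those of day 4, after a mean of 37.6 CPM on day 0. Every day 1 library stood far above every day 4 library, and day 4 still lay above day 0. Krt20, a keratin of epithelial stress and a marker of the injured tubule (ENSMUSG00000035775, chromosome 11, 99428403 to 99438150), had 997, 1339 and 807 CPM on day 1, 123, 85.8 and 73.1 CPM on day 4 and 0.106 CPM on day 0. The log2 fold changes were -2.79 ± 0.20 and -3.48 ± 0.40 (SE), with adjusted p = 1.56e-08 and 1.78e-06 (edgeR quasi-likelihood, Benjamini-Hochberg). Both genes were plating-induced.

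Kif23 encodes a kinesin of the central spindle that is needed to finish cell division (ENSMUSG00000032254, chromosome 9, 61915905 to 61946774). Its transcript was at 3.25, 3.04 and 3.01 CPM in the day 1 libraries and 188, 189 and 171 CPM in those of day 4. Libraries of one day were close to each other and the days were far apart, with a log2 fold change of 5.88 ± 0.57 and adjusted p = 3.19e-07 (edgeR quasi-likelihood, Benjamini-Hochberg). By day 14 it was back at 9.38 CPM. Krt18, the partner of Krt8 in the filaments of simple epithelia (ENSMUSG00000023043, chromosome 15, 102028180 to 102032027), went from 22.3 CPM on day 0 to 682, 866 and 626 CPM in the day 1 libraries and 1827, 1993 and 1768 CPM in those of day 4. The libraries did not overlap, and the log2 fold change was 1.36 ± 0.16 (adjusted p = 2.28e-06). Krt18 missed the 4-fold criterion, being already high on day 1. The genes whose log2 levels over the 18 libraries were most like Hmox1 were Sdad1 and Usp31 (Pearson r = 0.985 each), and those most like Kif23 were 4930579G24Rik and Prc1 (r = 0.995 each). These correlations are descriptions over libraries that share the same 6 days.

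**Figure D3:**
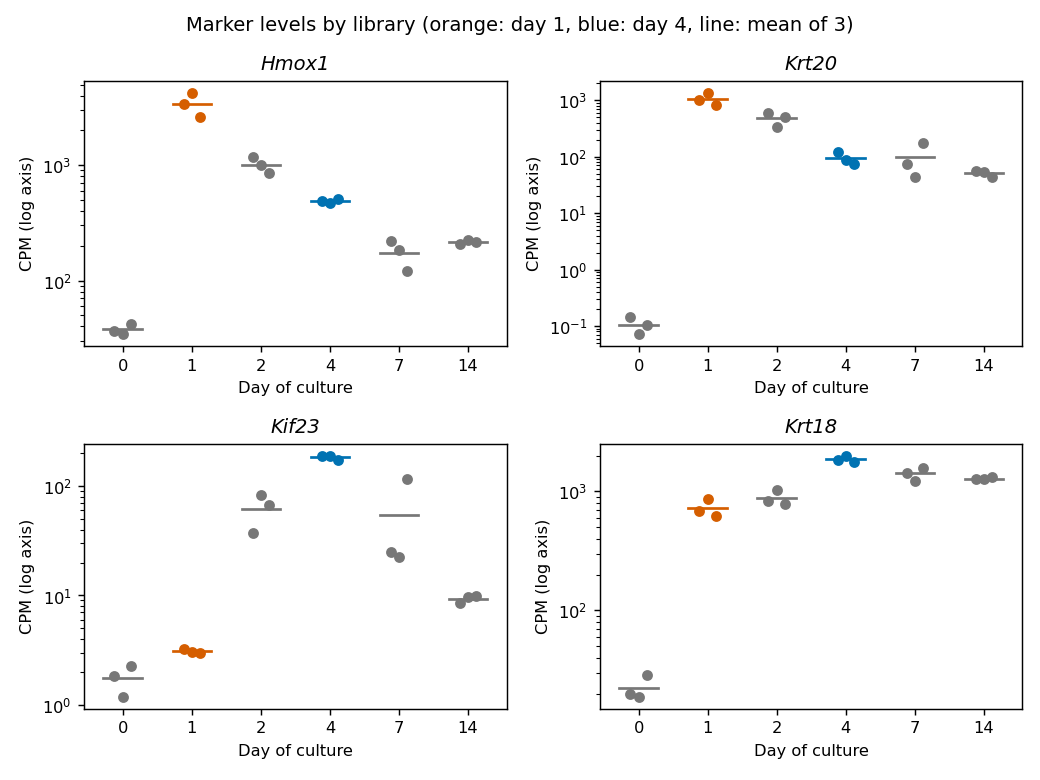
CPM (y axis, log axis, each panel on its own range) of Hmox1, Krt20, Kif23 and Krt18 in each of the 18 libraries by day of culture (x axis), with a line at the mean of the 3 libraries of a day. Orange points are day 1 and blue points day 4. Hmox1 and Krt20 peak on day 1, Kif23 on day 4, and Krt18 is high from day 1 on.

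Promoter sequence was read for the tested genes from RefSeq windows of 300 bases on GRCm38.p6, 250 before to 50 after a transcription start. Such windows were matched by symbol for 11995 tested genes (15321 windows), among them 109 of the 137 plating-induced and 418 of the 537 expansion-induced genes. An AP-1 motif (TGACTCA or TGAGTCA, each the reverse complement of the other) was found in 36 of 140 windows of plating-induced genes (25.7%), 3.62% of the 525 windows of expansion-induced genes and 4.26% of all windows. In the 62 matched genes of the mitosis lists (G2 and M kinases and cyclins, spindle, cytokinesis and kinetochore genes), 0 of 68 windows held it. The 3 plating-induced promoters printed here, those of Srxn1, Sprr1a and Mmp3, were picked because they hold the motif, and show it in capitals. They are 5′ to 3′ on the gene's strand, from chr2:152105274-152105573 (+), chr3:92485832-92486131 (-) and chr9:7445572-7445871 (+).
Srxn1: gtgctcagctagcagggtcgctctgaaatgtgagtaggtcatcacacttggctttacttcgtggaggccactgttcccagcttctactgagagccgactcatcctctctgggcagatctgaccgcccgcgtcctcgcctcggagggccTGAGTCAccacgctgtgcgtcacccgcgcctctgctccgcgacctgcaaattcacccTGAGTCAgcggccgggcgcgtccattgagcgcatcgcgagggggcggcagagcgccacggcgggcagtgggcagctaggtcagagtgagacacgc
Sprr1a: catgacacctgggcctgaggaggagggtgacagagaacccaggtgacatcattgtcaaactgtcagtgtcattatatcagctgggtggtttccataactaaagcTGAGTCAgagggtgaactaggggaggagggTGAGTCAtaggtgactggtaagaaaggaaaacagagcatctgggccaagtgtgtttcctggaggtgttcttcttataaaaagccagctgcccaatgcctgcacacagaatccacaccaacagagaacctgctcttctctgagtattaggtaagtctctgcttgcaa
Mmp3: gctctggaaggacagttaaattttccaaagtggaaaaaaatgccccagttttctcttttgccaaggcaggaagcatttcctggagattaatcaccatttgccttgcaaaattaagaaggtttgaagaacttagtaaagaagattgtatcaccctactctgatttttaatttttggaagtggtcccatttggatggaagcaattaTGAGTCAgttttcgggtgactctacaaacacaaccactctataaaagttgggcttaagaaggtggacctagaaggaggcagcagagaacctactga
The motif begins 102 and 45 bases before the start in Srxn1, 146 and 116 before it in Sprr1a and 46 before it in Mmp3.

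Promoters of mitotic genes carry another signature. The CHR element (TTTGAA or TTCGAA) was found in 46 of the 68 windows of the mitosis lists (67.6%), 25.9% of expansion-induced, 10% of plating-induced and 14.4% of all windows. The CCAAT box (CCAAT) was found in 72.1% of the mitosis windows and 37.4% of all windows. Both together stood in 37 of the 68 mitosis windows (54.4%), 15.4% of expansion-induced, 2.14% of plating-induced and 5.82% of all windows. Both strands were searched for every motif. Among CHR matches, 78.6% in the mitosis windows and 24.3% in all windows lay within 50 bases of the start. The promoters of Kif23, Plk1 and Bub1 show CHR elements and CCAAT boxes in capitals, on either strand. They are 5′ to 3′ on the gene's strand, from chr9:61946750-61947049 (-), chr7:122159185-122159484 (+) and chr2:127831810-127832109 (-).
Kif23: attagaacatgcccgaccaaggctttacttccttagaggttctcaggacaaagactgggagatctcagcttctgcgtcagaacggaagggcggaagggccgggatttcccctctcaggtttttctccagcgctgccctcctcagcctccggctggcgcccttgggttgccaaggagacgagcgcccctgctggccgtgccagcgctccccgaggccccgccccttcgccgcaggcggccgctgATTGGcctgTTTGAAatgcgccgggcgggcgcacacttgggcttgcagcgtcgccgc
Plk1: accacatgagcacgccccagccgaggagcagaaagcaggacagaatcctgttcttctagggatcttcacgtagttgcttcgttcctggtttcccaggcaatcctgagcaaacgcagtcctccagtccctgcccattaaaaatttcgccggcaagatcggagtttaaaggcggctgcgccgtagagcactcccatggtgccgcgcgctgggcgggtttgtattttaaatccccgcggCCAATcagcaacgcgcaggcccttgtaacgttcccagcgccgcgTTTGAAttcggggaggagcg
Bub1: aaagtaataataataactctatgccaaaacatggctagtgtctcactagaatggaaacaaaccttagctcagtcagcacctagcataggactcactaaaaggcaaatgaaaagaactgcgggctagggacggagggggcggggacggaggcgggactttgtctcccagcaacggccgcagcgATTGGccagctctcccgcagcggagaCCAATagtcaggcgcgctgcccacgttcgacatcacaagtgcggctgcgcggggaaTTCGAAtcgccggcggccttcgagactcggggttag
The CHR element begins 2 bases after the start in Kif23, 30 after it in Plk1 and 14 after it in Bub1. The E2F site (TTTCGCGC or TTTGGCGC) stood in 9 of 29 windows of the DNA replication list (31%), against 1.37% of all windows and 3 of the 68 mitosis windows. A match is a run of letters, and binding was not measured.

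**Figure D4:**
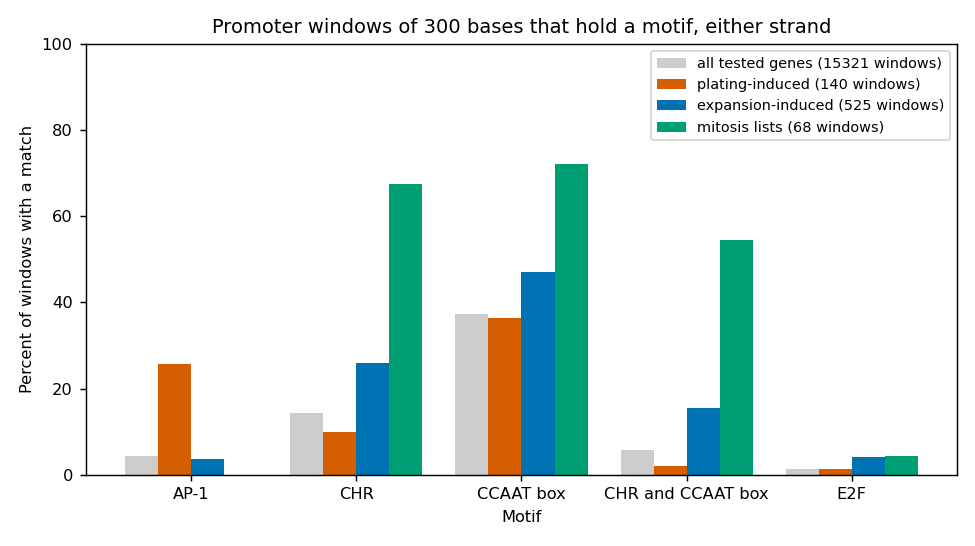
Percent of 300-base promoter windows (y axis) with a match to each motif (x axis) in all tested genes, plating-induced genes, expansion-induced genes and the mitosis lists. The AP-1 bar is tallest for plating-induced genes (25.7%), and the bars for the CHR element, the CCAAT box and both together are tallest for the mitosis lists (67.6%, 72.1% and 54.4%).

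Antioxidant genes driven by NRF2 were more often lower than higher on day 4. Of 20 tested members, 10 were lower on day 4 (31.7% of all genes were) and 3 higher (27.5% of all genes), with a median log2 fold change of -0.57 against -0.05 for all genes. Srxn1, which repairs oxidised peroxiredoxins, was at 2798, 2599 and 2149 CPM in the day 1 libraries and 351, 332 and 259 CPM in those of day 4 (log2 -3.00 ± 0.16, adjusted p = 9.16e-10, edgeR quasi-likelihood). Osgin1, an oxidative stress-induced growth inhibitor, had means of 288 ± 67.5 CPM and 39.7 ± 3.91 CPM (SD, n = 3). Fth1, the ferritin heavy chain that stores iron, had 11404, 13104 and 11995 CPM on day 1 and 4845, 4211 and 4519 CPM on day 4. The 3 members that rose on day 4 were Slc7a11, the cystine importer (67.0 ± 22.5 to 139 ± 22.7 CPM, adjusted p = 0.0515 by edgeR without day 1 replicate C), G6pdx, which makes NADPH in the pentose phosphate pathway (146 ± 7.36 to 326 ± 16.0 CPM), and Abcc1, an exporter of glutathione conjugates (129 ± 5.55 to 272 ± 29.8 CPM). Taldo1, a transaldolase of the same pathway as G6pdx, fell from 858 ± 16.3 to 458 ± 34.5 CPM. The antioxidant response motif (TGACNNNGC) stood in 7 of 22 NRF2 windows (31.8%), 17.1% of plating-induced and 14.1% of all windows, and can overlap an AP-1 motif, since both can begin with TGAC.

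Immediate early genes were mostly lower on day 4. Of 27 tested, 20 were lower on day 4 and 2 higher, with a median of -1.01. By the day 0 split, 3 of the 27 were plating-induced and 1, Fos, was a remainder gene. Mean levels of Fos were 409 CPM on day 0, 64.6 on day 1 and 5.30 on day 4, so it was highest at isolation. Fosl1, a FOS-family partner in AP-1, had 672, 684 and 648 CPM in the day 1 libraries and 56.4, 51.1 and 48.4 CPM in those of day 4 (log2 -3.68 ± 0.36, adjusted p = 1.04e-06, edgeR quasi-likelihood). Atf3, a stress-induced repressor of the same bZIP family, had 187, 169 and 132 CPM and 15.7, 13.4 and 12.5 CPM. For both, each day 1 library exceeded each day 4 library several times over. Jun, the central AP-1 subunit, had 506, 596 and 407 CPM on day 1 and 74.2, 63.6 and 61.8 CPM on day 4. The zinc finger factor Klf6 went from 1139 ± 189 to 431 ± 0.778 CPM. Myc, a growth regulator, fell less, from 385, 470.0 and 402 to 210.2, 211 and 202 CPM (log2 -1.01 ± 0.15), and on day 4 still lay above its mean of 12 CPM on day 0. Ier3 and Nr4a2 were the members that rose, with means of 204 ± 6.88 to 284 ± 23.4 CPM and 2.41 ± 0.555 to 3.99 ± 0.254 CPM (SD, n = 3). Nr4a2 was not called without day 1 replicate C (adjusted p = 0.0767, edgeR).

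Genes of protein folding in the ER were mostly higher on day 4, while most heat shock proteins were not called lower. Of 18 heat shock proteins, 7 were lower and 2 higher (median -0.32), where 31.7% of all genes were lower and 27.5% higher. By limma on log2(TPM + 1) 4 were lower, and 1 when tested against a fold of 2. Hspa1a, the inducible HSP70, had 146, 223 and 124 CPM on day 1 and 24.7, 26.4 and 24.6 CPM on day 4 (log2 -2.7 ± 0.49, adjusted p = 0.000176, edgeR quasi-likelihood), whereas Stip1, an adaptor between HSP70 and HSP90, rose from 179 ± 12.7 to 337 ± 10.4 CPM. Of 18 ER chaperones and folding enzymes, 13 were higher and 3 lower, with a median of 0.95. Their median level was 200 CPM on day 0, 140 on day 1 and 162 on day 4. Means of their summed level were 5814, 4558 and 6996 CPM on these days. By both, day 1 lay below the fresh tubule. Hsp90b1, the ER-resident HSP90, went from 331, 354 and 304 CPM to 1136, 1172 and 1065 CPM (log2 1.77 ± 0.16, adjusted p = 1.55e-07), and Pdia4, a disulfide isomerase, from 89.0, 91.7 and 78.7 to 323, 306 and 291 CPM. The 3 that fell were Dnajb9, an ER co-chaperone, at 288, 312 and 214 CPM on day 1 and 35.5, 33.5 and 32.2 CPM on day 4, Herpud1, a factor of ER-associated degradation (294 ± 80.2 to 73.5 ± 2.19 CPM), and Xbp1, a transcription factor of the unfolded protein response (286 ± 2.27 to 177 ± 2.7 CPM). Hspa5, the HSP70 of the ER, had means of 1285 ± 186 and 1354 ± 66.2 CPM with no call (adjusted p = 0.753).

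Of the 26 genes of the ATF4 (integrated stress) response, 10 were higher and 9 lower (27.5% and 31.7% of all genes). Their median, -0.15, was 0.05 with library sizes alone and 0.13 by limma on log2(TPM + 1), so the direction of the median depended on the scaling. Ppp1r15a, which restarts translation by dephosphorylating eIF2-alpha, had 655, 549 and 461 CPM on day 1 and 51.3, 48.4 and 52.7 CPM on day 4 (log2 -3.45 ± 0.30, adjusted p = 9.78e-08, edgeR quasi-likelihood), and Ddit3, the factor CHOP, 57.7, 65.4 and 57.1 CPM and 11.9, 10.1 and 9.69 CPM. Members with roles in amino acid supply went both ways. Phgdh and Psat1, consecutive enzymes of serine synthesis, rose from 324 ± 33.1 to 587 ± 14.4 CPM and from 212 ± 3.78 to 361 ± 28.5 CPM, and Slc7a5, an importer of large amino acids, from 114 ± 8.26 to 252 ± 4.04 CPM. Slc3a2, the partner chain of Slc7a5, fell from 919 ± 51.7 to 275 ± 4.98 CPM, and Cth, an enzyme of cysteine synthesis, from 175 ± 28.9 to 85.0 ± 13.2 CPM (not called in 5 alternatives). The remaining 7 of the 26 had no call.

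Interferon-stimulated genes were lower on day 4 in 26 of 30 cases and higher in 0, with a median of -2.37. Their summed level was uneven between the day 1 libraries, at 1574 CPM in A, 580 in B and 1368 in C, against 371, 316 and 400 CPM on day 4 and means of 591 CPM on day 0, 980 on day 7 and 874 on day 14. Usp18, a protease that removes the ubiquitin-like ISG15, showed this in 1 gene, with 100.2, 10.5 and 79.1 CPM on day 1 and 1.93, 1.85 and 3.98 CPM on day 4 (log2 -4.62 ± 0.75, adjusted p = 6.25e-05, edgeR quasi-likelihood). Replicate B stood at a fraction of A and C, and still above each day 4 library. That did not hold for every member: of the 26 called lower, 20 had no overlap between the libraries of the days. Over all tested genes, 5779 of the 5953 called lower had none. Irf9, the DNA-binding part of the interferon-activated complex, went from 80.7 ± 38.9 to 10.2 ± 1.51 CPM, and B2m, the light chain of class I antigen presentation, from 310.1 ± 39.9 to 132 ± 20.7 CPM. Without day 1 replicate B, 25 members were called lower.

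Hypoxia genes were also mostly lower on day 4 than on day 1: 15 of 19 were lower and 1 higher (median -1.86). Car9, carbonic anhydrase 9, had 52.1, 45.7 and 42.3 CPM in the day 1 libraries and 0.538, 0.260 and 0.669 CPM in those of day 4 (log2 -6.57 ± 0.58, adjusted p = 1.14e-07, edgeR quasi-likelihood). P4ha1, a collagen prolyl hydroxylase, went from 349 ± 32.9 to 66.7 ± 8.31 CPM. The 1 member that rose was Hif1a itself, the oxygen-regulated transcription factor, from 196 ± 14.5 to 304 ± 9.27 CPM; its protein, not its transcript, is what oxygen is known to control. The summed level of the list was no higher on day 1 than in the fresh tubule, with means of 4107 CPM on day 1, 4236 on day 0 and 1247 on day 4. On day 14 the mean was 2203 CPM, and the day 7 libraries A, B and C had 4162, 3943 and 1176 CPM. Of 19 genes of glycolysis and lactate transport, 9 were lower and 4 higher (median -0.70): Slc16a3, a lactate exporter, fell from 259, 258 and 281 to 41.0, 22.6 and 49.3 CPM, while Pkm, pyruvate kinase, rose from 1636 ± 22.5 to 3757 ± 163 CPM and Hk1, hexokinase 1, from 198 ± 27.4 to 486 ± 29.9 CPM.

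Autophagy receptors and regulators were lower on day 4 in 11 of 15 cases and higher in 2. Sqstm1, the receptor p62 that also feeds back on NRF2, had 5932, 5544 and 5363 CPM on day 1 and 1538, 1408 and 1361 CPM on day 4, against a mean of 779.6 CPM on day 0 (log2 -1.97 ± 0.11, adjusted p = 1.6e-09, edgeR quasi-likelihood). Of 22 lysosomal genes, 15 were lower and 3 higher: the cathepsins B and L (Ctsb, 2180.1 ± 160.3 to 614 ± 41.6 CPM; Ctsl, 1286 ± 266 to 384 ± 18.2 CPM) fell and cathepsin D (Ctsd, 1705 ± 51.7 to 2813 ± 131 CPM) rose. Ribosome biogenesis genes were lower in 16 of 27 cases and higher in 1, and by small steps (median -0.38): Gnl3, nucleostemin, went from 246 ± 21.2 to 122 ± 8.20 CPM, and Npm1, nucleophosmin, the 1 that rose, from 639 ± 24.7 to 764 ± 34.6 CPM (not called without day 1 replicate B, adjusted p = 0.0625, or day 4 replicate B, 0.0712, edgeR). Proteasome subunits were higher in 13 of 31 cases and lower in 2 (median 0.14).

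Genes of tubule injury split between the days. Of 27 tested, 16 were higher on day 4 and 7 lower. Among those that fell, Plaur, the urokinase receptor, had 786, 793 and 691 CPM on day 1 and 181, 187 and 179.8 CPM on day 4 (log2 -2.05 ± 0.11, adjusted p = 9.14e-10, edgeR quasi-likelihood), and Tnfrsf12a, the receptor of the cytokine TWEAK, 1186, 1131 and 1108 CPM and 336, 354 and 309 CPM. Havcr1, kidney injury molecule 1, had 1583, 1208 and 2249 CPM and 587, 419 and 631 CPM; its libraries did not overlap, but its adjusted p of 0.0252 (edgeR) missed the threshold in 7 alternatives, reaching 0.21 against a fold of 2 and 0.0819, 0.0557 and 0.0874 without day 1 replicate C, day 4 replicate A and day 4 replicate B. Those that rose include S100a6, a calcium-binding protein (341 ± 72.8 to 933 ± 19.9 CPM), Anxa1, annexin A1 (42.3 ± 2.36 to 223 ± 25.3 CPM), Cd24a, a surface glycoprotein of regenerating tubules (129 ± 20.6 to 507 ± 14.5 CPM), Spp1, osteopontin (2357, 3808 and 3172 to 7942, 6849 and 8033 CPM), and Lcn2, the iron-carrier binder NGAL. Lcn2 had 37.5, 21.9 and 29.9 CPM on day 1, 135, 132 and 171 CPM on day 4 and a mean of 2192 CPM on day 14, so most of its rise came later. Vim, vimentin, had 186, 189 and 239.6 CPM and 189.9, 128 and 166 CPM, with overlapping libraries and adjusted p = 0.654 (edgeR).

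Keratins went both ways. Of 11 tested, 6 were higher and 4 lower on day 4. Krt7, a keratin of ductal epithelia, rose from 301, 376 and 342 to 2413, 2676 and 2285 CPM (log2 2.86 ± 0.16, adjusted p = 1.24e-09, edgeR quasi-likelihood), and Krt19 from 147, 167 and 156 to 316, 353 and 318 CPM. Krt8 had 1739, 1867 and 1486 CPM on day 1 and 1941, 1895 and 1759 CPM on day 4, with no call (log2 0.14 ± 0.16, adjusted p = 0.483, or 0.0380 by limma on log2(TPM + 1)), while Krt18 rose. Krt5, a keratin of basal cells, fell with Krt20, from 19.6 ± 4.38 to 1.97 ± 0.85 CPM. Sprr1a, a crosslinked protein of the cornified envelope of stressed epithelia, was outside the lists and had 1475, 1407 and 1229 CPM in the day 1 libraries and 39.0, 25.3 and 33.8 CPM in those of day 4, after a mean of 0.236 CPM on day 0 (log2 -5.39 ± 0.36, adjusted p = 6.1e-09). The cornified envelope genes Sprr2d, Sprr2f, Sprr2h, Cnfn and Sbsn were among the plating-induced genes too. Reads of the near-identical Sprr2 copies cannot be assigned to one copy with certainty.

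Over the 18 libraries the 137 plating-induced genes did not all follow one course. Each was placed with the one of Hmox1, Usp18 and Pecam1 that it correlated with best, a description chosen after these values were seen. With Hmox1 went 56 genes (medians of 1.65, 51.4, 35.6 and 8.38 CPM on days 0, 1, 2 and 4), among them Sprr1a, Fosl1, Krt20, Srxn1, Plaur and Mmp3, a matrix stromelysin. With Usp18 went 38 genes with a dip on day 4, at medians of 36.5 CPM on day 1, 3.39 on day 4 and 17.0 on day 7. They include 10 of the interferon list, Usp18 itself among them, and 5 of the hypoxia list. The likeness of the interferon genes to this set is thus partly built in. Some placements were close, as for Atf3 (r = 0.769 with Hmox1 and 0.773 with Usp18). With Pecam1 went 43 genes with medians of 10.4, 57.1, 5.06 and 1.24 CPM on days 0, 1, 4 and 14, among them the endothelial genes Robo4, Notch4, Esm1, Angpt2, Nos3 and Cdh5.

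Endothelial markers were mostly lower on day 4. Pecam1, which defines the last of these sets, is itself one of them, and 3 members of the list are in that set, so their likeness to it is partly built in. Of 14 endothelial markers, 12 were lower on day 4 and 1 higher, and their summed level was 272, 388 and 226 CPM on day 1 and 75.1, 73.5 and 57.9 CPM on day 4, with means of 344 CPM on day 0 and 27.7 on day 14. Pecam1, the endothelial adhesion molecule CD31, had 58.2, 89.5 and 51.1 CPM on day 1 and 8.23, 9.49 and 7.54 CPM on day 4 and a mean of 26.8 CPM on day 0 (log2 -2.98 ± 0.44, adjusted p = 2.68e-05, edgeR quasi-likelihood). Day 1 thus had a higher CPM of this transcript than day 0, although the mean sum of the list on day 1 (295 CPM) was not above that of day 0. The part of endothelial cells in the 137 plating-induced genes was not tested.

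Sums over the markers of several other cell types were lower on day 4. Macrophage and myeloid markers summed to 83.0 to 86.3 CPM on day 1 and 25.9 to 32.7 CPM on day 4, with 4 of 15 lower and 0 higher, a share not above that of all genes (31.7%). Cd68, a lysosomal protein of macrophages that was plating-induced (1.94 CPM on day 0), made up most of the difference, with 38.4 ± 2.40 and 4.52 ± 0.960 CPM. The list's median log2 fold change of -0.21 turned to 0.18 by limma on log2(TPM + 1). Thick limb markers summed to 243 to 536 CPM against 23.1 to 32.9 CPM, with 5 of 9 lower and 2 higher: Umod, uromodulin, fell from 93.9, 148 and 70.5 to 1.93, 0.487 and 0.247 CPM, whereas Cldn16 and Cldn19, paired claudins of the thick limb, rose from 0.723 ± 0.0491 to 2.11 ± 0.570 CPM and from 0.602 ± 0.317 to 2.40 ± 1.10 CPM (not called in 5 and 4 alternatives). Of 17 distal and collecting duct markers, 13 were lower and 2 higher. Red blood cell genes summed to 20.5 to 29.8 CPM on day 1 and were at 0 counts in all day 4 libraries, where Hbb-bs was at least 351-fold lower (against 3 counts over the 3 libraries). Fibroblast and pericyte markers (63.7 to 102 CPM on day 1, 49.1 to 80.4 on day 4) and podocyte markers (194 to 296 and 232 to 327 CPM) overlapped between the days (exact permutation p = 0.4 for each). The other sums had an exact permutation p of 0.1. None of the 537 expansion-induced genes and 4 of the 137 plating-induced genes were in a list of another cell type. Of the 441 remainder genes, 15 were in such a list, with 5 on the thick limb list and 7 on the distal and collecting duct list. These lists held only 5 to 17 tested genes each, of 18754 tested in all. The 0 among the expansion-induced genes is thus no measure of other cells.

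**Figure D5:**
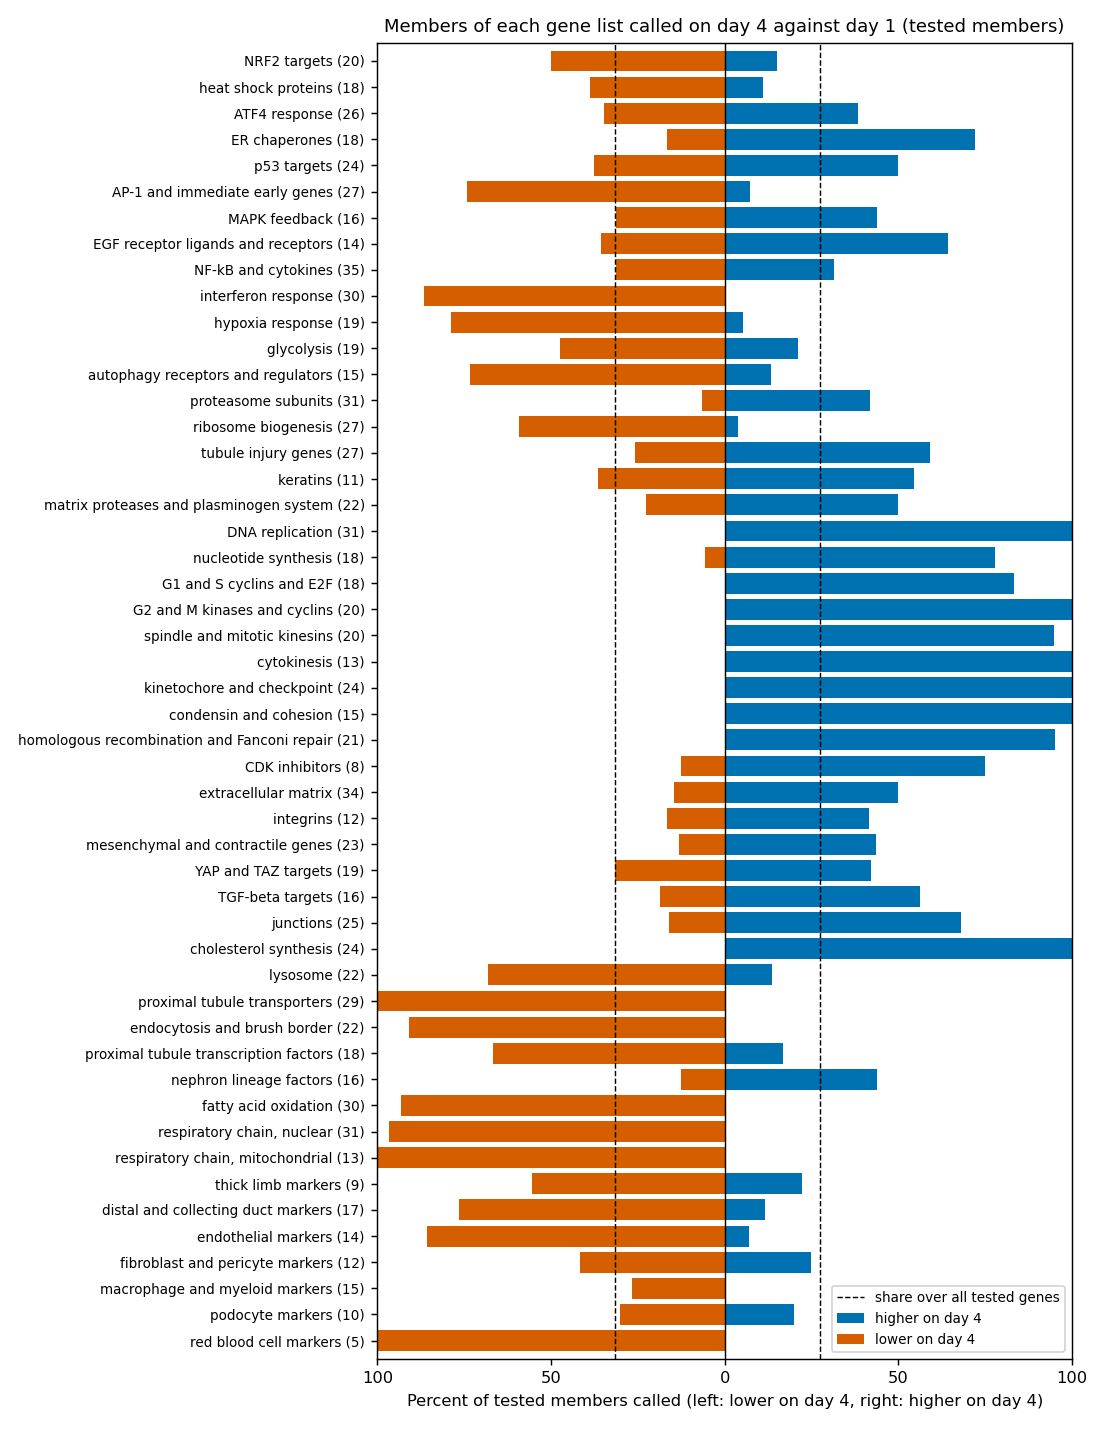
Percent of tested members of each of the 50 gene lists (y axis, tested members in brackets) called lower (left, orange) or higher (right, blue) on day 4 than on day 1 (x axis). Dashed lines mark the shares over all genes, 31.7% lower and 27.5% higher. The cell cycle and cholesterol lists lie almost wholly to the right, the transporter, mitochondrial and interferon lists to the left.

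The proximal tubule's own transcripts were mostly lower on day 1 than in the fresh tubule and lower again on day 4, when most of its transporters were near 0 and some of its other genes were not. All 29 tested proximal tubule transporters were lower on day 4, with a median level of 1.40 CPM there and a median log2 fold change of -7.59 (-6.74 with genes at 0 counts set at their bound). Their summed level was 8730, 12843 and 6587 CPM in the day 1 libraries and 184, 120 and 163 CPM in those of day 4, against a mean of 36370 CPM on day 0. Slc34a1, the apical phosphate transporter, went from 3723, 5281 and 2600.1 CPM to 5.57, 4.32 and 3.13 CPM (log2 -9.79 ± 0.44, adjusted p = 2.59e-10, edgeR quasi-likelihood), and Slc22a6, the organic anion transporter OAT1, from 139, 237 and 119 to 0.0316, 0.0975 and 0.0704 CPM. Replicate B of day 1 was the highest for both, and no day 4 library came near any of day 1. Lrp2, the endocytic receptor megalin, fell less steeply, from 131, 231 and 114 to 16.9, 10.5 and 10.2 CPM (log2 -3.66 ± 0.38). Hnf4a, the factor that maintains proximal tubule identity, had 52.4, 89.6 and 42.1 CPM and 5.54, 2.60 and 5.18 CPM (log2 -3.79 ± 0.55, adjusted p = 2.21e-05). Of the 18 genes in the list of proximal tubule transcription factors, which also holds the enzyme Ehhadh, 12 were lower and 3 higher, and their summed level went from a mean of 1033 to 591 CPM. Of 22 endocytosis and brush border genes, 20 were lower and 0 higher, and their summed level went from a mean of 2865 to 1214 CPM, of which Ezr, the microvillus linker ezrin, held 669 CPM on day 4. Several genes of tubule metabolism had 0 counts on day 4: Cyp2e1, a cytochrome P450, was at least 1330-fold lower, Haao at least 1290-fold and Acmsd, like Haao an enzyme of tryptophan breakdown, at least 1240-fold (against 3 counts over the 3 libraries).

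Genes of oxidative metabolism were lower too. Of 30 fatty acid oxidation genes, 28 were lower on day 4 and 0 higher: Cpt1a, the gatekeeper of mitochondrial fatty acid import, went from 142 ± 34.2 to 25.9 ± 4.72 CPM and Ehhadh, a peroxisomal enzyme, from 149 ± 68.5 to 5.27 ± 0.995 CPM (SD, n = 3). All 13 mitochondrially encoded respiratory chain genes were lower (median -3.31), and so were 30 of the 31 nuclear ones, by far less (median -0.64): mt-Cytb, cytochrome b, had 4374, 5518 and 3564 CPM on day 1 and 434, 475 and 444 CPM on day 4, and Cox6c, a nuclear subunit of cytochrome oxidase, 271, 297 and 252 CPM and 120.2, 121 and 124 CPM. The nuclear list lost most of its calls when tested against a fold of 2, with 2 of 31 left.

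Epithelial and kidney lineage genes were present on both days. Pax8, a kidney lineage factor, had 266, 293 and 295 CPM on day 1 and 169, 163 and 187 CPM on day 4 (log2 -0.72 ± 0.21, adjusted p = 0.00814, edgeR quasi-likelihood; not called in 4 alternatives), above its mean of 111 CPM on day 0. Of 16 nephron lineage factors, 7 were higher and 2 lower: Pax2, which acts with Pax8 in the forming nephron, rose from 2.03 ± 0.613 to 10.3 ± 1.22 CPM and Jag1, a Notch ligand, from 36.0 ± 7.13 to 193 ± 12.5 CPM. The median level of the list was 16.8 CPM on day 0, 3.67 on day 1 and 11.9 on day 4, and 2 members were expansion-induced. Its summed level, which includes Pax8, had means of 378, 474 and 578 CPM on these days. Epcam, an epithelial adhesion molecule, rose from 95.6, 112 and 96.2 to 329, 367 and 296 CPM (log2 1.71 ± 0.14, adjusted p = 6.5e-08). Of 25 junction genes, 17 were higher and 4 lower. Claudins went both ways: Cldn2 and Cldn10, which form pores of the proximal tubule and thick limb, fell from 58.1 ± 23.1 to 15.1 ± 4.22 CPM and from 16.5 ± 4.23 to 0.953 ± 0.306 CPM, while Cldn3, Cldn6 and Cldn7 rose, Cldn7 from 109.5 ± 17.2 to 536 ± 51.4 CPM and Cldn6, a claudin of embryonic epithelia, from 4.36 ± 0.420 to 40.4 ± 3.90 CPM.

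Genes of mitosis and cell division rose almost without exception. Higher on day 4 were 20 of 20 kinases and cyclins of G2 and M (median log2 fold change 5.75), 19 of 20 spindle genes and mitotic kinesins (6.07), 13 of 13 cytokinesis genes (5.88), 24 of 24 kinetochore and checkpoint genes (5.48) and 15 of 15 condensin and cohesion genes (4.30), with 0 lower in each, against 27.5% of all genes higher. Ccnb1, cyclin B1, which drives entry into mitosis, had 1.13, 0.471 and 1.23 CPM on day 1 and 233, 248 and 219 CPM on day 4 (log2 7.91 ± 0.74, adjusted p = 2.16e-07, edgeR quasi-likelihood). Plk1, a kinase of spindle assembly, had 0.531, 0.727 and 0.399 CPM and 146, 151 and 139 CPM (log2 8.05 ± 0.76). Bub1, a kinase of the spindle checkpoint, went from 0.389, 0.128 and 0.145 to 90.1, 88.4 and 84.7 CPM (log2 8.57 ± 0.76). All 3 were close to 0 on day 1 and differed little among the day 4 libraries. Mki67, the proliferation antigen Ki-67, went from 1.03, 0.813 and 1.20 to 135, 116 and 104 CPM and Cenpf, a kinetochore protein, from 0.177, 0.171 and 0.181 to 73.9, 58.8 and 51.6 CPM. On day 14, Ccnb1 was down to a mean of 5.93 CPM.

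The genes of DNA synthesis rose too, by less. All 31 DNA replication genes were higher on day 4, with a median of 2.51, and 14 of 18 nucleotide synthesis genes were higher. Rrm2, the regulated subunit of ribonucleotide reductase, had 9.83, 15.5 and 20.2 CPM on day 1 and 742, 717 and 656 CPM on day 4 (log2 5.54 ± 0.39, adjusted p = 9.28e-09, edgeR quasi-likelihood). Homologous recombination and Fanconi repair genes were higher in 20 of 21 cases and lower in 0 (median 4.36). Of 18 G1 and S cyclins and E2F genes, 15 were higher and 0 lower: Ccnd1, cyclin D1, which links growth signals to the cycle, rose from 47.7, 74.1 and 69.4 to 433, 487 and 403 CPM (log2 2.79 ± 0.16), and Cdk6, its kinase partner, had 94.7, 102 and 122 CPM and 126, 117 and 112 CPM with no call (adjusted p = 0.459).

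Inhibitors of the cycle moved in both directions. Cdkn1a, the p53-induced inhibitor p21, fell from 557, 469.6 and 587 CPM on day 1 to 190.3, 181 and 213 CPM on day 4 (log2 -1.47 ± 0.22, adjusted p = 2.39e-05, edgeR quasi-likelihood), by way of a mean of 982 CPM on day 2. Of the 8 inhibitors tested, 6 were higher on day 4 and Cdkn1a alone was lower. Their summed level nevertheless went from a mean of 583 CPM on day 1 down to 334 CPM on day 4. Cdkn2b, p15, rose from 8.49, 7.19 and 7.29 to 45.6, 56.3 and 45.8 CPM and reached 118 CPM on day 14, and Cdkn2c, p18, from 2.77 ± 0.132 to 18.3 ± 1.31 CPM. Cdkn2a had 0 counts on day 1 and was at least 5.96-fold higher on day 4, at 0.226 CPM. Of 24 p53 targets, 12 were higher and 9 lower (27.5% and 31.7% of all genes). Mdm2, the ligase that degrades p53, fell from 320.0 ± 12.7 to 180.3 ± 4.36 CPM with Cdkn1a, while Gdf15, a secreted stress cytokine, rose from 123, 109.8 and 97.1 to 295, 403 and 361 CPM. The summed level of the list overlapped between the days (means of 2946 and 3023 CPM; exact permutation p = 0.4) and was higher on day 2 (4482 CPM).

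Genes of cholesterol synthesis rose together. All 24 tested genes were higher on day 4, with a median of 2.35, and their summed level went from 1355 CPM on day 1 to 6524 CPM on day 4 and 1760 CPM on day 14. Idi1, an isomerase of the isoprenoid steps, had 55.6, 52.6 and 46.3 CPM on day 1 and 679.9, 701 and 607 CPM on day 4 (log2 3.68 ± 0.15), with no overlap between the days. By day 14, 22 of the 24 had come down at least 2-fold from day 4. Scd2, a desaturase that makes monounsaturated fatty acids and is outside the list, went from 34.5, 36.8 and 52.2 to 2226, 2020.3 and 1875 CPM (log2 5.63 ± 0.33).

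Genes of matrix, adhesion and cytoskeleton were more often higher than lower. Of 34 extracellular matrix genes, 17 were higher and 5 lower, and their summed level went from a mean of 5328 to 12246 CPM. Thbs1, thrombospondin 1, which activates latent TGF-beta, rose from 169, 172 and 138 to 1779.6, 1669 and 1644 CPM and reached a mean of 4535 CPM on day 14 (log2 day 4 over day 1 3.41 ± 0.18, adjusted p = 5.97e-10, edgeR quasi-likelihood). Of 12 integrins, 5 were higher (3 without day 1 replicate A or without day 4 replicate A) and 2 lower: Itga3 and Itgb4, subunits of laminin receptors, rose from 187, 215 and 236 to 976, 1032 and 934 CPM and from 21.9 ± 3.56 to 109.7 ± 14.7 CPM, and Itgb8 fell from 43.5 ± 16.3 to 3.51 ± 1.83 CPM. Of 23 mesenchymal and contractile genes, 10 were higher and 3 lower. Cnn2, a calponin on actin fibres, rose from 18.2, 18.3 and 19 to 289.6, 321 and 298 CPM (log2 4.03 ± 0.16, adjusted p = 1.02e-10) and Tpm1, a tropomyosin, from 263 ± 14.0 to 1575 ± 129 CPM, whereas Zeb2, a repressor of epithelial genes, fell from 36.5 ± 6.37 to 8.92 ± 2.61 CPM.

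Matrix proteases went both ways. Of 22 genes of the list, 11 were higher and 5 lower. Mmp14, the membrane-bound collagenase of cell invasion, rose from 18.7, 19.6 and 14.8 to 132, 109 and 105 CPM (log2 2.7 ± 0.21, adjusted p = 2.35e-08, edgeR quasi-likelihood), and Mmp10, a stromelysin, fell from 32.9 ± 8.92 to 8.15 ± 1.31 CPM. Mmp3, another stromelysin, had 18.7, 78.0 and 61.7 CPM on day 1 and 3.92, 2.21 and 3.45 CPM on day 4 (log2 -4.04 ± 0.67, adjusted p = 8.46e-05), with replicate A well below B and C on day 1 and still above day 4. Of 16 TGF-beta targets and components, 9 were higher and 3 lower, Tgfbr2, the type II receptor, from 181 ± 4.54 to 450.3 ± 15.7 CPM. YAP and TAZ targets had 8 higher and 6 lower of 19 (27.5% of all genes were higher and 31.7% lower). Their median of -0.10 was 0.10 with library sizes alone and 0.38 by limma on log2(TPM + 1). Ankrd1, a mechanically induced cofactor, rose from 36.0, 36.5 and 26.7 to 301, 263 and 266 CPM and Axl, a receptor tyrosine kinase, from 114 ± 25.1 to 566 ± 17.5 CPM, while F3, tissue factor, fell from 743 ± 94.3 to 385 ± 46.3 CPM.

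Genes of signalling between cells were called in both directions. Of 14 EGF receptor ligands and receptors, 9 were higher and 5 lower. Tgfa and Btc, ligands of the receptor, rose from 13.3, 16.3 and 16.1 to 69.9, 65.5 and 64.7 CPM and from 7.17 ± 1.31 to 54.4 ± 3.70 CPM, and Erbb2, a co-receptor, from 38.4 ± 0.912 to 84.3 ± 2.58 CPM. Errfi1, a feedback inhibitor of the receptor, fell from 724 ± 201 to 206 ± 3.30 CPM, and Egf, a transcript of the thick limb and distal tubule, from 136 ± 67.7 to 0.772 ± 0.317 CPM. Of 16 MAPK feedback genes, 7 were higher and 5 lower (27.5% and 31.7% of all genes). Etv4, a factor downstream of receptor tyrosine kinases, rose from 2.90 ± 0.685 to 41.6 ± 2.80 CPM, and Dusp1 and Dusp8, MAP kinase phosphatases, fell from 188 ± 63.4 to 36.5 ± 3.09 CPM and from 136 ± 3.16 to 27.0 ± 1.85 CPM. Of 35 NF-kB and cytokine genes, 11 were higher and 11 lower, close to the shares of all genes (27.5% higher and 31.7% lower). Ccl20, a chemokine that draws CCR6-bearing lymphocytes, had 13.5, 13.4 and 24.5 CPM on day 1, 399, 555 and 559 CPM on day 4 and a mean of 16.9 CPM on day 14 (log2 4.88 ± 0.41, adjusted p = 7.07e-08, edgeR quasi-likelihood). It was thus high on day 4 and low again at the end of the culture. Icam1, an adhesion molecule for leukocytes, fell from 44.6 ± 2.60 to 14.3 ± 0.274 CPM.

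The 537 expansion-induced genes divided by what became of them later. On day 14, 322 stood at least 2-fold below their day 4 level, 154 of these at least 10-fold, 182 lay within 2-fold of it and 33 stood at least 2-fold above it. Of the 134 that belong to a cell cycle list, 132 were among the 322, 1 among the 182 and 1 among the 33. The 322 had median levels of 43.9 CPM on day 4 and 4.62 on day 14, the 182 of 45.7 and 44.8 CPM. Among those that stayed, Msln, mesothelin, a surface protein of mesothelium and of some cancers, had 1.27, 0.984 and 1.70 CPM on day 1, 311, 350.1 and 283 CPM on day 4 and a mean of 459 CPM on day 14 (log2 7.88 ± 0.30, adjusted p = 1.02e-10, edgeR quasi-likelihood). Wnt7b, a Wnt ligand of the collecting duct epithelium, had 23.1, 22.0 and 22.6 CPM and 422, 432 and 405 CPM, with a mean of 510.0 CPM on day 14. The expansion-induced genes thus held a set that came down by day 14, with nearly all of the cell cycle genes, and a set that stayed.

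The largest single changes were mostly of mitotic and tubule genes. Of the 15 largest rises among the called genes that reached 10 CPM without overlap, Pimreg, Bub1, Cenpf, Troap, Depdc1a, Plk1, Ube2c, Ccnb1, Ckap2l and Kif2c act in mitosis, while Krt4, Plekhs1 and Msln do not. Pimreg had 0, 0.0856 and 0.0725 CPM on day 1 and 53.3, 58.2 and 48.4 CPM on day 4 (log2 9.92 ± 1.01, adjusted p = 5.2e-07, edgeR quasi-likelihood). Krt4, a keratin of stratified epithelia, rested on so few counts on day 1 that its ratio of 344 has a counting interval of 117 to 1670 (exact, 95%). Of the 15 largest falls, all but Hbb-bs belong to the tubule's metabolism and transport, among them Cyp2e1, Haao, Acmsd, Slc22a19, Hpd, Bhmt2, Nat8 and G6pc. None of the 15 falls was a plating-induced gene. The median log2 fold change was -2.98 for the plating-induced genes, -4.43 for the remainder genes and 3.17 for the expansion-induced genes. The classes were chosen by this same fold change, so these medians are descriptions.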

How the data were processed

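The authors deposited estimated counts per gene, whole numbers in the file, and TPM per gene, which keeps no depth. The submitters' processing notes name the build GRCm38 and the tools STAR 2.7.8a, RSEM 1.3.3, cutadapt 2.3 and FastQC 0.11.8. Annotation release and strand setting are not stated in them, so overlapping, antisense and near-identical genes can share reads. Of 55426 entries, 5 reporters were left out. The expected counts as deposited were tested with edgeR 4.0.16 in R 4.3.3: filterByExpr left 18754 genes, scaled by the trimmed mean of M-values, and a quasi-likelihood F test of day 4 against day 1 was taken from 1 model with a mean per day, fitted to all 18 libraries so that they share 1 estimate of the spread, with Benjamini-Hochberg adjustment at 0.05. The standard error of a log2 fold change was derived from its F statistic. Folds against 0 counts use a floor of 3 counts over the 3 libraries, and intervals cover counting error only. Positions come from GENCODE vM21 (GRCm38). In counts of 15855 genes simulated for the 6 libraries of days 1 and 4 and fitted alone, the test found 20 of 49 genes changed 2-fold. It found 44 of 50 changed 4-fold, and 15656 genes were left unchanged. The fit to 18 libraries, in which 59.3% of genes were called, was not simulated, so these counts do not give its sensitivity.

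The members and the 50 gene lists (991 genes, 989 matched by name and 977 tested) were chosen with earlier results of these data known, so list counts are descriptions. The text names 20 markers, the 15 largest rises and falls, per list the members with the smallest adjusted p, and the 5 genes most like Hmox1 and Kif23; some of these are not reported here. Named outside this rule, after their values were seen, are Sprr1a, Sprr2d, Sprr2f, Sprr2h, Cnfn, Sbsn, Mmp3, Robo4, Notch4, Esm1, Angpt2, Nos3, Ddit3, Cth, Ezr, Fos, Lcn2, Spp1, Scd2, Wnt7b and the genes beside the 4-fold criterion. The alternatives were other scalings, filters, tests and thresholds, the replicate letter as a block, and each library left out in turn.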

Additional observations from a re-analysis of the deposited data

How the results depend on the processing

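Fos was not followed through the alternatives. There were 29 alternatives, of which 28 gave a result for mt-Cytb, Vim and Cdkn2a. Of the 163 genes named other than Fos, 129 kept direction and call in each alternative with a result, and 1 changed direction. The log2 fold change of that gene, Hspa5, not called, ran from -0.038 (without day 1 replicate C) to 0.17 with 1 library left out. Of the 50 lists, 21 kept a count within 1.5 times in each. With the replicate block, 5269 genes were higher and 5939 lower, and no list call moved by over 1.5 times. The labels do not say whether equal letters mark a shared source, and not every pair reached a correlation of 0.1, so the letters were not taken as pairs: deviations from the day means correlated at -0.0241, 0.0247 and 0.213 between libraries of the same letter, and day 1 A correlated best with day 4 C, B with day 4 A and C with day 4 C. Leaving out 1 library gave 4646 to 5769 genes higher and 5368 to 6573 lower, 3 to 6 integrins higher and 1 to 4 podocyte markers lower. With 2-fold in place of 4-fold, 1477 genes were high on day 1 and not day 4 (410 plating-induced) and 1488 on day 4 and not day 1 (1018 expansion-induced). With 8-fold, these were 451 (66) and 301 (296). Fewer genes pass when tested against a fold of 2 (glmTreat), by construction: 1707 were higher and 2212 lower. Members then lower on day 4 were 16 interferon and 16 fatty acid oxidation genes, 13 immediate early genes, 4 NRF2 targets, 4 autophagy genes, 3 lysosomal genes, 2 nuclear respiratory chain genes, 2 fibroblast and 2 macrophage markers, 1 heat shock, 1 glycolysis and 1 podocyte gene and 0 ribosome biogenesis genes. Members then higher were 7 matrix genes, 7 of nucleotide synthesis, 6 each of the NF-kB, injury, protease and junction lists, 5 ER chaperones, 4 EGF receptor and 4 YAP genes, 3 p53 targets, 3 integrins, 3 mesenchymal genes, 2 MAPK and 2 TGF-beta genes, 1 ATF4 gene and 0 proteasome subunits. By limma on log2(TPM + 1), 3623 genes were lower, 90 plating-induced, 24 proteasome subunits higher (21 with library sizes alone), and 9 ribosome biogenesis, 5 glycolysis and 4 heat shock genes lower. On log2(TPM + 0.1), 3668 genes were lower, with the same 24, 9, 5 and 4. On log2(TPM + 1) without a filter, 88 genes were plating-induced, 24 proteasome subunits higher, and 17 interferon, 9 ribosome biogenesis, 3 heat shock, 3 fibroblast, 2 glycolysis and 1 podocyte genes lower. The cause was not tested. Depth limits the genes near 0 counts on the low day, whose folds are bounds or have wide intervals.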
